A study of Mus musculus with 18 samples.

Results

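The genes described here are 10 members of the fibroblast growth factor (FGF) family: the ligand genes Fgf3, Fgf8, Fgf9, Fgf10, Fgf15 and Fgf23 and the receptor genes Fgfr1, Fgfr2, Fgfr3 and Fgfr4. They were chosen by symbol, as named genes, with earlier results of these data known. Each had 1 entry among the 23337 genes of the deposited count table. All 10 were among the 14892 genes that passed the filter on low counts. FGF ligands are secreted proteins that bind receptor tyrosine kinases together with heparan sulfate or, for the endocrine members, with Klotho proteins. The activated receptor signals through the adaptors FRS2, GRB2 and GAB1 to RAS and ERK, and Sprouty, Spred and DUSP proteins restrain the signal in turn. In the mouse embryo Fgf8 and Fgf10 are expressed in the second heart field, the progenitor pool that adds cells to the poles of the early heart tube.

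The study asked how a pulse of GLI1, a transcriptional activator of the Hedgehog pathway, acts on cells on their way to becoming heart muscle. RNA was measured in cells derived from mouse embryonic stem cells (cell line GLI1-FTA, strain A2Lox.cre) at days 5, 6, 8 and 12 (D5 to D12) of cardiac differentiation. The GLI1 overexpression (GLI1 OE) cultures received 500 ng/ml doxycycline over the 24 hours between D5 and D6, after which the drug was washed out. The labels call the cells cardiac progenitor cells at D5 and D6 and cardiomyocytes at D8 and D12. The 18 libraries of polyadenylated RNA, read as stranded single-end reads of 50 bases, fell into 7 groups: 4 untreated D5 libraries, 3 GLI1 OE and 3 control libraries at D6, 2 GLI1 OE and 2 control libraries at D8, and 2 GLI1 OE and 2 control libraries at D12. Control cultures were of the same line and were untreated, so an effect of doxycycline itself and an effect of GLI1 cannot be told apart. All values come from 1 engineered line. The labels number replicates but do not say that they were separate cultures, and p-values may therefore measure technical spread only.

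The libraries held 18470785 to 26184339 counts each. Levels are given as CPM, counts relative to a library size that was scaled by TMM factors. Gli1 had 891, 1050.4 and 785 CPM in the D6 GLI1 OE libraries, against 6.84, 21.4 and 13.7 CPM in the D6 controls, and Ptch1, a Hedgehog target gene, had 899, 1087 and 1044 CPM against 34.5, 73.8 and 51.2 CPM. Both followed the labels at D6. Markers of the cardiac list were detected in every group, with none at 0. Some libraries stood apart from the rest of their group. D5 control libraries 1 and 2 differed less from each other (chi-square per gene of 7.17) than any other pair of D5 libraries (53.5 to 99.2), and D8 GLI1 OE libraries 14 and 18 differed most of all pairs within a group (129). In D8 GLI1 OE library 18 the 10 cardiac markers summed to 938 CPM, and in library 14 to 9362 CPM.

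Sequence upstream of the start site was available in the RefSeq table (GRCm38.p6) for 7 of the 10 genes, in 8 windows of 250 bases. Each was searched on both strands for the GLI-type motif GACCACCCA and for ACCACCC, which lies inside the longer motif. The longer motif was in none of the 8 windows and in 0.2253% of all 32851 windows of this length. The shorter one was in 1 window, that of Fgf23, and in 3.924% of all windows. Here 3 windows are printed 5′ to 3′ on the gene's strand, with a motif match in capitals. The Fgf3 window (chr7:144838362-144838611, plus strand) is shown because Fgf3 had the highest estimate of the 10 genes for GLI1 OE over control at D6, the Fgfr2 window (chr7:130266809-130267058, minus strand) because it was the receptor with the highest estimate at D6 and D8, and the Fgf23 window (chr6:127072652-127072901, plus strand) because it holds the match.
Fgf3: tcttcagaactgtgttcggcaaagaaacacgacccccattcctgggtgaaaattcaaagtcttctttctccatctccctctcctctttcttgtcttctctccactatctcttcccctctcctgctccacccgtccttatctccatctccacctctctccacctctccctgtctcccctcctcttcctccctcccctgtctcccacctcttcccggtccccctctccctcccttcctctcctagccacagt
Fgfr2: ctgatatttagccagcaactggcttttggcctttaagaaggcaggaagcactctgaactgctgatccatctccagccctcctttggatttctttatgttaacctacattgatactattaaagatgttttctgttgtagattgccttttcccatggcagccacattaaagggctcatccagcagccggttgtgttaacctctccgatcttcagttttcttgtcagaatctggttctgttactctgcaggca
Fgf23: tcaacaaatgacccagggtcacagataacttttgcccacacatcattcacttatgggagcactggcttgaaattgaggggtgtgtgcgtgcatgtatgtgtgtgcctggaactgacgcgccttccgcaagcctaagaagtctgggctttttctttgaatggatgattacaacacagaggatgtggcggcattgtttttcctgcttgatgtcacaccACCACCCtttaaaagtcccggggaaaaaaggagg
The match in Fgf23 starts 34 bases upstream of the start site. The Fgf3 window has no match and consists of 79.2% C and T, a share reached by 0.0761% of all windows. A match is a string of letters and not a measured binding site, and these windows say nothing about sequence farther away.

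At D6, at the end of the pulse, the transcripts of Fgf3 and Fgf15 rose steeply and those of the other 8 genes did not pass the test. Fgf3, a ligand known for its part in inner ear formation, reached 134, 100.1 and 108 CPM in GLI1 OE libraries 4, 12 and 16, against 2.21, 0.372 and 0.701 CPM in control libraries 3, 11 and 15. The groups were far apart: the lowest GLI1 OE library was above the highest control library by more than the whole range of the controls. The difference was 6.68 ± 1.02 log2 units (SE; edgeR quasi-likelihood test, Benjamini-Hochberg adjusted p = 0.00149). Fgf15, the mouse counterpart of human FGF19 and in adults an intestinal hormone that represses bile acid synthesis, reached 291, 213 and 196 CPM in the GLI1 OE libraries, against 17.97, 3.63 and 3.46 CPM in the controls. Control library 3 was the highest control for both genes and still lay far below every GLI1 OE library. The difference for Fgf15 was 4.80 ± 0.86 log2 units (edgeR adjusted p = 0.00486). Both genes passed under all 11 alternative settings tried, with estimates between 6.27 and 7.71 for Fgf3 and between 4.43 and 6.03 for Fgf15.

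Fgf9, a ligand of epithelia and mesothelia that acts on neighbouring mesenchyme, was low throughout. It had 1.65, 3.42 and 1.25 CPM in the D6 GLI1 OE libraries, against 0.382, 0.744 and 0.280 CPM in the D6 controls. The groups did not overlap, and the ratio within each pair of adjacent library numbers was alike, at 1.88, 2.07 and 1.85 log2 units. The test over all genes gave 2.15 ± 0.92 (edgeR adjusted p = 0.256), so that this difference did not pass. Beside these D6 controls, the D5 controls themselves spanned 0.166 to 3.71 CPM, and each D6 GLI1 OE library lay within that span.

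Fgf8 and Fgf10 are ligands expressed in the second heart field. Fgf8 had 5.83, 8.07 and 2.03 CPM in the D6 GLI1 OE libraries, against 11.1, 17.0 and 8.27 CPM in the D6 controls. Every GLI1 OE library was below every control library, the highest GLI1 OE value being just under the lowest control value. The estimate was -1.19 ± 0.63 log2 units (edgeR adjusted p = 0.401). With adjacent library numbers as a block it was -1.32 and passed (edgeR adjusted p = 0.0440). Fgf10 was among the more abundant ligand transcripts, at 48.1, 84.0 and 27.6 CPM in the D6 GLI1 OE libraries and 52.7, 80.4 and 42.7 CPM in the D6 controls. The groups overlapped and the estimate of -0.14 ± 0.48 was within its error (edgeR adjusted p = 0.949). Fgf23, an endocrine ligand that bone cells release to regulate phosphate, had 3 counts in total in the D6 GLI1 OE libraries and 1 in the D6 controls, too few for a ratio.

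The receptors moved less than the 2 ligands. Fgfr2, whose splice forms receive Fgf10 and Fgf3 in epithelia and other ligands in mesenchyme, had 79.5, 76.9 and 108 CPM in the D6 GLI1 OE libraries, against 45.6, 25.2 and 46.2 CPM in the D6 controls. Each GLI1 OE library was above each control library, and the estimate was 1.17 ± 0.40 log2 units (edgeR adjusted p = 0.140; DESeq2 adjusted p = 0.0432). Fgfr3, best known for restraining bone growth, had 41.8, 29.6 and 36.4 CPM in the D6 GLI1 OE libraries, against 84.4, 45.5 and 84.4 CPM in the D6 controls. All GLI1 OE values were below all control values, and the estimate of -0.99 ± 0.49 did not pass (edgeR adjusted p = 0.356).

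Fgfr1, the broadly expressed receptor of the mesoderm, had 202, 178 and 210.3 CPM in the D6 GLI1 OE libraries, against 248, 220.3 and 226 CPM in the D6 controls. Its groups did not overlap, but the estimate was small, at -0.23 ± 0.14 log2 units (edgeR adjusted p = 0.471). Fgfr4, the receptor through which Fgf15 acts on the liver, was close to the limit of detection, with 19 counts over the D6 GLI1 OE libraries and 47 over the D6 controls. Its groups overlapped, and the estimate was -1.32 ± 0.65 (edgeR adjusted p = 0.349).

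**Figure D1:**
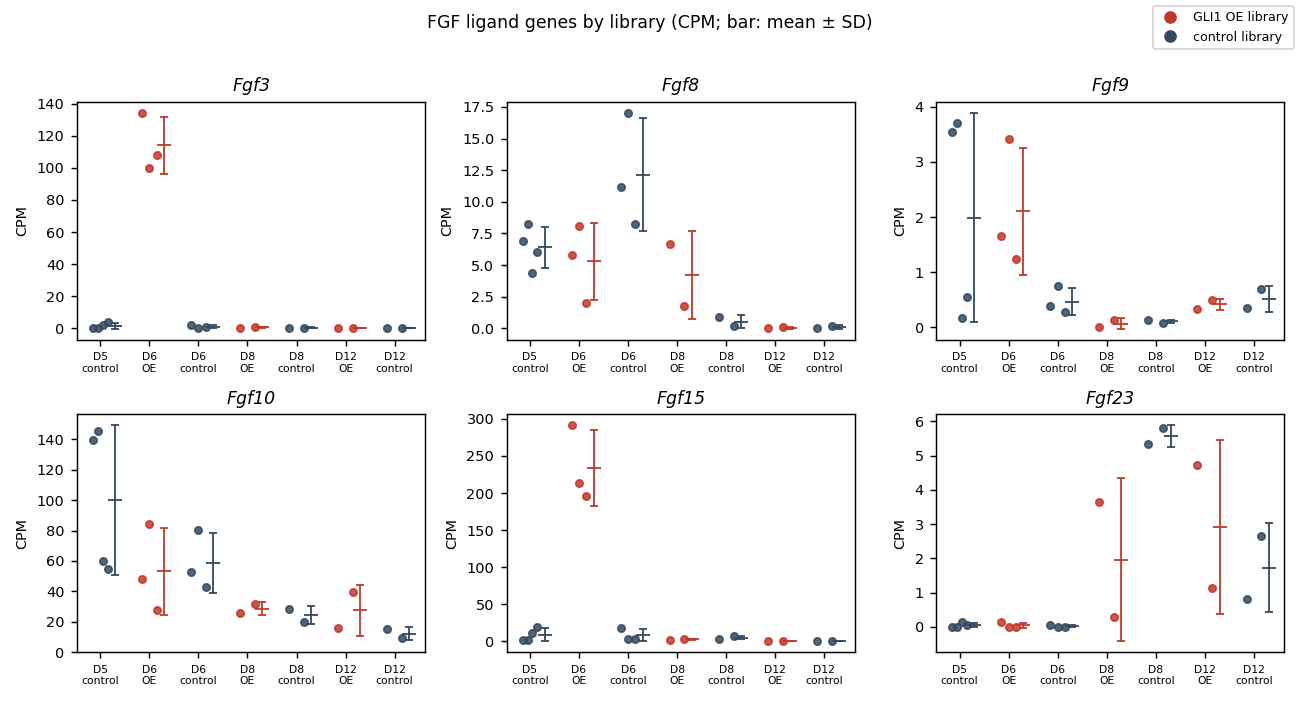
Level of each FGF ligand gene in each library (CPM, linear axis, a separate scale for each gene), with GLI1 OE groups in red and control groups in dark blue; bars give the mean ± SD. The 3 D6 GLI1 OE libraries of Fgf3 (100.1 to 134 CPM) and Fgf15 (196 to 291 CPM) stand above all other libraries, while Fgf10 is highest at D5 and Fgf23 appears at D8 and D12.

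In all, 2 of the 10 genes were called at D6, both higher, where 4.14% of all tested genes were called and 3.02% were called higher. Another 2, Fgf9 and Fgfr2, had an unadjusted p under 0.05, which made 4 of the 10, against 2348 of all 14892 tested genes. DESeq2 called 3 (Fgf3, Fgf15 and Fgfr2), against 6.92% of all genes, and the fit with the block called 3 (Fgf3, Fgf15 and Fgf8), against 4.48%. The authors' deposited table, which gives log2 fold changes of GLI1 OE over control, calls 5 of the 9 genes it lists with an adjusted p under 0.05, against 12.9% of all its genes: Fgf3 (6.71), Fgf15 (4.81), Fgf9 (2.18) and Fgfr2 (1.18) higher and Fgfr3 (-0.98) lower. The GLI1 OE and control libraries did not overlap for 7 of the 10 genes, against 27% of all genes: Fgf3, Fgf9, Fgf15 and Fgfr2 were higher and Fgf8, Fgfr1 and Fgfr3 lower. The median estimate over the 10 genes was 0.52 log2 units, and over all tested genes -0.02. Because the genes were chosen with earlier results of these data known, these shares do not measure enrichment.

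Marker levels of other cell types also differed at D6. The definitive endoderm markers summed to 114 to 144 CPM in the GLI1 OE libraries and 13.3 to 26.2 CPM in the controls. Of the 7 tested, edgeR called 2 higher (Foxa2 and Alb) and DESeq2 called 1 higher. Alb had no counts in the D5, D8 and D12 controls. Markers of the second heart field summed to 167 to 192 CPM against 119 to 189 CPM, ranges that overlap. Of these 7 markers, 2 (Osr1 and Six2) were called higher, but only 4 had estimates above 0, with a median of 0.14 log2 units. Cardiac markers summed to 1066 to 2794 CPM against 2963 to 6979 CPM, with all 10 estimates below 0 and none called by edgeR (4 at an unadjusted p under 0.05; 1 lower by DESeq2). For neural markers the sums were 281 to 438 CPM against 334 to 670.3 CPM, with 1 of 6 (Dcx) called lower, and for endothelial markers 363 to 644 CPM against 225 to 581 CPM, with 1 of 6 (Sox18) called higher. Neither edgeR nor DESeq2 called any of 4 paraxial mesoderm markers (1.23 to 3.31 against 2.65 to 6.03 CPM, with Msgn1 at 0 in the GLI1 OE libraries and Myf5 at 0 in the controls), 5 blood markers (111 to 239 against 206 to 694 CPM) or 6 smooth muscle and mesenchyme markers (2375 to 4590.2 against 4709.5 to 6492 CPM). In bulk RNA, a change in the number of cells of a type and a change in RNA per cell cannot be told apart, and the part these differences had in the FGF results was not tested.

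**Figure D2:**
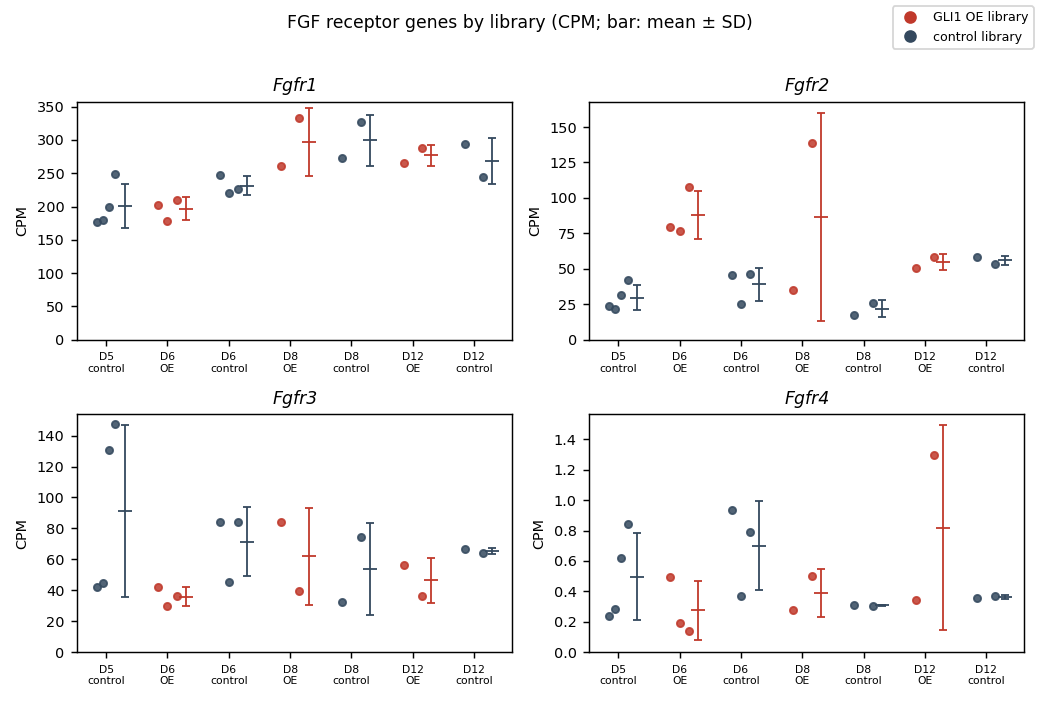
Level of each FGF receptor gene in each library (CPM, linear axis, a separate scale for each gene), with GLI1 OE groups in red and control groups in dark blue; bars give the mean ± SD. Fgfr2 was at 76.9 to 108 CPM in the 3 D6 GLI1 OE libraries and 25.2 to 46.2 CPM in the D6 controls, and at D8 one GLI1 OE library (139 CPM) is far above the other (34.8 CPM).

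Per kilobase of transcript, which allows genes to be compared with each other, Fgf3 and Fgf15 made up most of the transcripts of secreted FGF ligands in the D6 GLI1 OE libraries. Together they held 78.8% to 86.3% of the CPM per kilobase summed over 18 secreted ligand genes in the D6 GLI1 OE libraries, against 4.68% to 26.2% in the D6 controls. This sum was 180 to 256 CPM per kilobase in the GLI1 OE libraries and 27.6 to 46.3 in the controls. With the 4 intracellular FGF homologous factors (Fgf11 to Fgf14) added to the sum, the share was 75.8% to 83.9% in the GLI1 OE libraries, against 3.75% to 22.3% in the controls. In the D6 controls the levels per kilobase of Fgf10 (14.3 ± 4.74, SD) and Fgf8 (12.8 ± 4.70) were the highest of the 6 ligands and did not differ from each other beyond their spread. In the D6 GLI1 OE libraries the order was Fgf15 (129 ± 28.1), Fgf3 (49.6 ± 7.78), Fgf10 (12.9 ± 6.94) and Fgf8 (5.59 ± 3.21), and the ranges of Fgf10 and Fgf8 are close enough that their spreads touch. The receptor sum was 68.1 to 85.2 CPM per kilobase in the GLI1 OE libraries and 67.9 to 89.1 in the controls.

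Among the receptors the order per kilobase also differed between the D6 groups. Fgfr1 came first in both, with 44.8 ± 3.84 CPM per kilobase in the GLI1 OE libraries and 52.7 ± 3.29 in the controls (SD, n = 3 each). Fgfr2 came next in the GLI1 OE libraries, with 23.3 ± 4.51 against 8.66 ± 1.48 for Fgfr3. In the controls the order was the opposite, with 10.3 ± 3.17 for Fgfr2 and 17.2 ± 5.41 for Fgfr3. Fgfr4 was last in both, at 0.0827 ± 0.0581 and 0.211 ± 0.0881. These are descriptions of levels, and no test was made between genes.

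Fgf3 and Fgf15 are neighbours on mouse chromosome 7, with Fgf4 between them. Fgf4, a ligand of the early embryo, did not pass the filter on low counts. It had 19 counts over the D6 GLI1 OE libraries (5, 11 and 3) and 1 over the D6 controls, a ratio of 18.9 (95% interval 3.0 to 784, counting error only). In the order of the RefSeq annotation, Cttn, Ppfia1, Fadd and Ano1 lie on the Fgf3 side of the cluster and Oraov1, Ccnd1 and Tpcn2 on the Fgf15 side. Ano1, a chloride channel gene next to Fgf3, averaged 84.7 ± 20.4 CPM in the D6 GLI1 OE libraries and 23.2 ± 10.4 CPM in the D6 controls (SD, n = 3 each). Its difference of 1.87 ± 0.49 log2 units passed (edgeR adjusted p = 0.0466), but was called under only 5 of 11 alternatives and was lost in 5 of the 6 fits that each left out 1 library. The other 6 tested neighbours had estimates between -0.12 and 0.20 and did not pass; Ccnd1, the cyclin D1 gene, was at 0.14 (edgeR adjusted p = 0.734). The 2 genes also varied alike over all 18 libraries, with a Pearson r of log2 CPM of 0.96, a figure in which the D6 GLI1 OE libraries weigh heavily. Overlapping or antisense transcripts cannot be separated, because use of strand in the counting is not given in the sources used here.

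**Figure D3:**
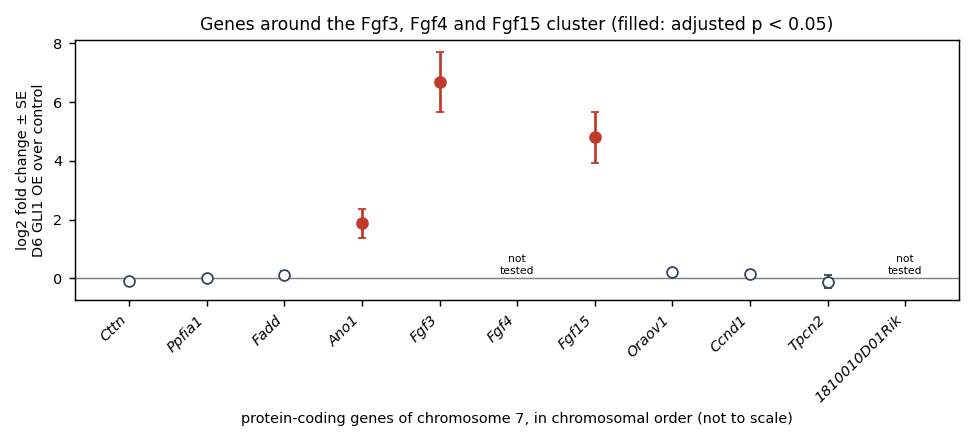
Difference between D6 GLI1 OE and D6 control (log2 fold change ± SE, edgeR) for the protein-coding genes around Fgf3, Fgf4 and Fgf15 on chromosome 7, placed in chromosomal order and not to scale; filled points passed the test. Fgf3 (6.68), Fgf15 (4.80) and Ano1 (1.87) are the filled points, and the other tested neighbours lie near 0.

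Fgf23 has a neighbourhood of its own on chromosome 6, between Fgf6 and Tigar, with Ccnd2 beyond Tigar. None of the tested genes in it was called at D6. Among the tested neighbours the cyclin D2 gene Ccnd2 had the largest estimate, 0.80 ± 0.28 log2 units (edgeR adjusted p = 0.141).

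The rest of the pathway was followed through 4 lists, of which 6 of 63 tested genes (9.52%) were called at D6 by edgeR, against 4.14% of all genes. The authors' deposited table calls 21 of the 64 genes of these lists that it holds (32.8%) at an adjusted p under 0.05, 13 higher and 8 lower, against 12.9% of all its genes. The lists too were chosen with earlier results of these data known, so their shares do not measure enrichment. Among the other FGF ligands, 2 of the 10 tested (16 in the list) rose and none fell by edgeR. Fgf14, which belongs to the intracellular FGF homologous factors that bind sodium channels, had 1.65, 2.28 and 8.92 CPM in the D6 GLI1 OE libraries, against 0, 0.0465 and 0.0934 CPM in the D6 controls. These are 281 and 3 counts, a ratio of 93.0 (95% interval 31.5 to 454, counting error only; edgeR adjusted p = 0.00166). Fgf5, a secreted ligand of the early embryo and of the hair follicle, had 19.9, 8.78 and 16.0 CPM in the D6 GLI1 OE libraries, against 2.68, 1.26 and 4.76 CPM in the D6 controls. It rose by 2.36 ± 0.62 log2 units (edgeR adjusted p = 0.0473), and lost the call with the block (0.0588) and in all 6 fits that each left out 1 library (0.0501 to 0.164).

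Of the co-receptors and binding proteins, 1 of 18 tested (19 in the list) rose and none fell by edgeR, a share near the 4.14% of all genes. DESeq2 called 1 higher and 1 lower. The authors' deposited table calls 4 higher and 2 lower, the lower ones being Hs6st1 (-0.95) and Hs6st2 (-0.57). Sdc4, a heparan sulfate proteoglycan of the cell surface, had 23.0, 29.3 and 24.1 CPM in the D6 GLI1 OE libraries, against 12.9, 16.6 and 11.1 CPM in the D6 controls. The difference was 0.91 ± 0.23 log2 units (edgeR adjusted p = 0.0383, 0.0583 with the block), and 4 of 11 alternatives called it. Of the signal transducers, 1 of 20 tested (21 in the list) rose and none fell by edgeR, again a share near that of all genes. DESeq2 called 2 higher and 1 lower. The authors' deposited table calls 4 higher and 2 lower, the lower ones being Ptpn11 (-0.31) and Map2k1 (-0.28). Gab1, the docking protein that couples FGF receptors to ERK and PI3-kinase signalling, averaged 213 ± 9.91 CPM in the D6 GLI1 OE libraries and 95.4 ± 5.45 CPM in the D6 controls (SD, n = 3 each). All 3 GLI1 OE libraries, at 202, 216 and 220.4 CPM, were far above the highest control, at 101 CPM. The difference of 1.16 ± 0.19 log2 units (edgeR adjusted p = 0.00294) was called under all 11 alternatives.

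Of the feedback inhibitors and target genes, 1 of 15 tested (16 in the list) rose and 1 fell by edgeR. Spred1, an inhibitor of RAS and ERK signalling, averaged 284 ± 54.7 CPM in the D6 GLI1 OE libraries and 135 ± 23.0 CPM in the D6 controls. It rose by 1.07 ± 0.18 log2 units (edgeR adjusted p = 0.00335). Spry2, a Sprouty inhibitor of receptor tyrosine kinases, had 52.2, 56.0 and 41.1 CPM in the D6 GLI1 OE libraries, against 123, 135 and 107 CPM in the D6 controls. It fell by 1.29 on the log2 scale (SE 0.18; edgeR adjusted p = 0.000637). Both were called under all 11 alternatives. The other tested genes of the list did not pass in edgeR, with estimates between -1.05 (Flrt3, edgeR adjusted p = 0.342) and 1.34 (Egr1, edgeR adjusted p = 0.323). In the authors' deposited table, Spred1 and Egr1 (1.35) are called higher, and Spry2, Spry4 (-0.81), Dusp4 (-0.77) and Flrt3 (-1.04) lower. The median estimates of the 4 lists were 0.07, 0.16, 0.05 and -0.12 log2 units, in the order given, beside -0.02 over all tested genes.

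**Figure D4:**
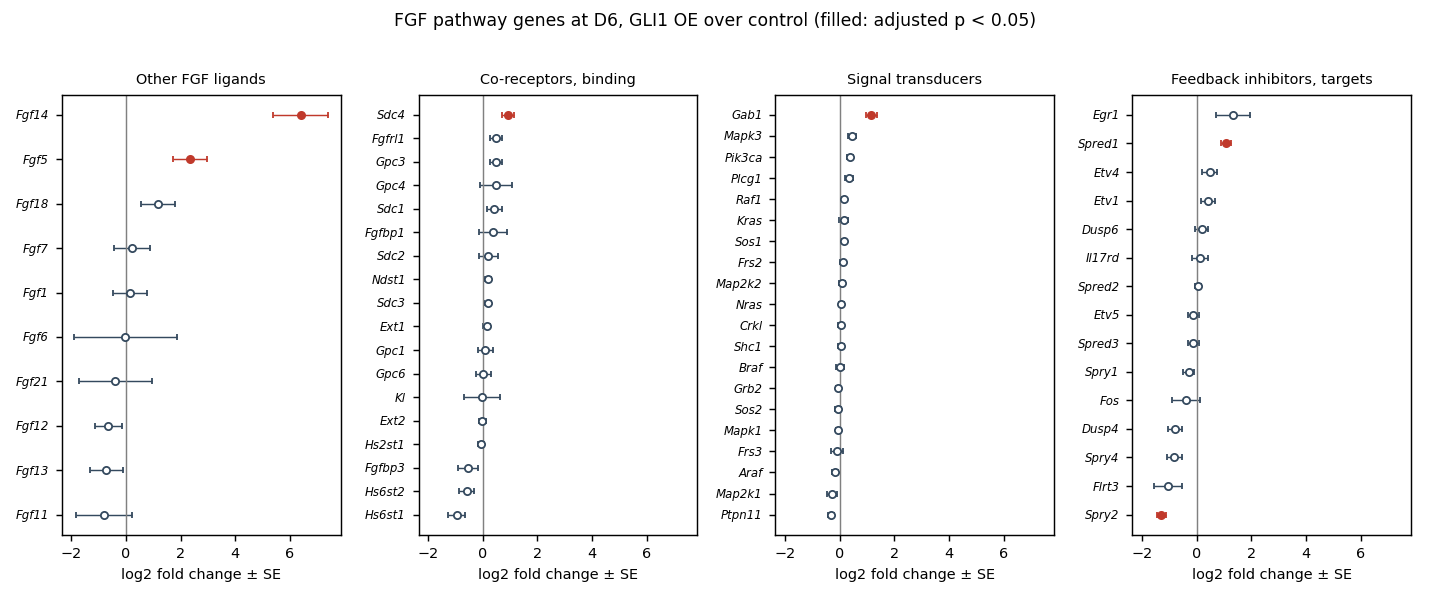
Difference between D6 GLI1 OE and D6 control (log2 fold change ± SE, edgeR) for every tested gene of the 4 pathway lists, sorted within each list; filled points passed the test. The filled points are Fgf14, Fgf5, Sdc4, Gab1 and Spred1 on the right of 0 and Spry2 on the left; the value of Fgf14 rests on 3 control counts and its size depends on the fit.

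At D8, with the drug gone since D6, no member of the family and no gene at all was called by edgeR. This is 0 of 10 genes, against 0% of all genes, with 2 of the 10 and 886 of all genes at an unadjusted p under 0.05; DESeq2 called 1 of the 10 (Fgfr2), against 0.28%. Fgf3 had 0.463 and 0.681 CPM in GLI1 OE libraries 14 and 18, against 0.177 and 0.479 CPM in control libraries 13 and 17. Fgf15 had 2.27 and 3.41 CPM in the GLI1 OE libraries, against 3.27 and 6.71 CPM in the controls. For both genes the 2 groups overlapped at D8, and their estimates were 0.79 ± 1.56 and -0.81 ± 1.03 log2 units (edgeR adjusted p = 0.967 and 0.942).

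Fgf8 and Fgfr2 were the 2 genes with an unadjusted p under 0.05 at D8. Fgf8 had 6.66 and 1.77 CPM in the GLI1 OE libraries, against 0.885 and 0.174 CPM in the controls. Both GLI1 OE libraries were above both controls, and within each pair of adjacent library numbers the ratio was close to the same, at 2.79 and 2.81 log2 units. The estimate was 2.98 ± 0.90 (edgeR adjusted p = 0.632). Fgfr2 had 34.8 and 139 CPM in the GLI1 OE libraries, against 17.7 and 26.3 CPM in the controls. The groups did not overlap, but library 18 was far above the rest. The estimate was 1.98 ± 0.51 (edgeR adjusted p = 0.489, DESeq2 adjusted p = 0.0264). The authors' deposited table gives 2.01 (adjusted p = 0.0744). In edgeR the estimate became 2.66 without library 14 and 0.67 without library 18. Library 18 also had more Ptch1, at 105 CPM against 39.7 CPM in library 14, with 33.4 and 29.5 CPM in the controls. Gli1 was low in all 4 of these libraries, at 1.45 CPM in library 18, 0.925 CPM in library 14, and 0.752 and 1.18 CPM in the controls.

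With Fgf8, Fgfr2 and Fgf23, 3 of the 10 genes had groups that did not overlap at D8, against 32.2% of all genes, which is near the background. Fgf23 had 3.65 and 0.272 CPM in GLI1 OE libraries 14 and 18, against 5.35 and 5.80 CPM in control libraries 13 and 17. Both GLI1 OE libraries were lower, library 18 by far the more, and the estimate of -1.50 ± 1.05 did not pass (edgeR adjusted p = 0.887). The summed cardiac markers were 9362 and 938 CPM in the same GLI1 OE libraries, against 11612.7 and 4733 CPM in the same controls, and their part in the Fgf23 and Fgfr2 values was not tested. Among the other genes, Fgf9 had 3 counts over the D8 GLI1 OE libraries and 5 over the controls, a ratio of 0.626 (95% interval 0.0973 to 3.22, counting error only). Fgf10, Fgfr1, Fgfr3 and Fgfr4 had overlapping groups and estimates between -0.01 and 0.33. None of the genes of the 4 pathway lists was called at D8 by edgeR or by DESeq2, and none had an unadjusted p under 0.05.

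**Figure D5:**
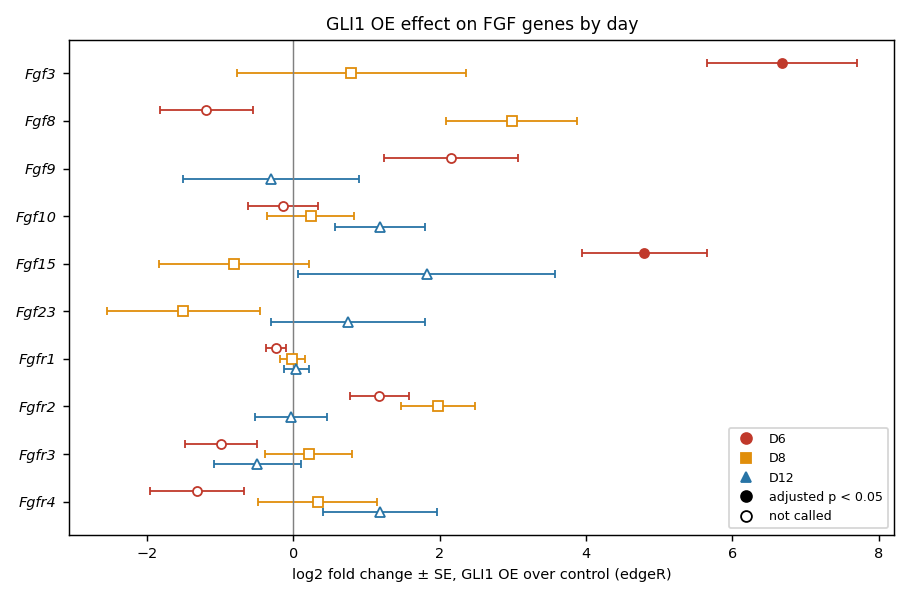
Difference between GLI1 OE and control on each day (log2 fold change ± SE, edgeR) for each of the 10 genes; filled symbols passed the test. Only Fgf3 and Fgf15 at D6 are filled; Fgf8 lies left of 0 at D6 (-1.19) and right of 0 at D8 (2.98); points are left out where either group had 3 or fewer counts.

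At D12 again no member and no gene was called by edgeR, which is 0 of 10, against 0% of all genes; by DESeq2 it was 0 of 10 too, against 0.094%, and 0 of 10, but 840 of all genes, reached an unadjusted p under 0.05. Fgf10 had 15.6 and 39.5 CPM in GLI1 OE libraries 10 and 20, against 15.3 and 9.02 CPM in control libraries 9 and 19. The groups just failed to overlap: library 10 was at the level of the higher control, and library 20 alone was well above. The estimate was 1.18 ± 0.61 log2 units (edgeR adjusted p = 0.904). The authors' deposited table gives 1.20 (adjusted p = 0.314). Paraxial mesoderm markers summed to 76.1 CPM in library 20, against 20.9 CPM in library 10 and 19.2 and 17.6 CPM in the controls. Cardiac markers summed to 2318 CPM in library 20, against 4496 CPM in library 10 and 3767 and 8913 CPM in the controls. The part of these markers in the Fgf10 value was not tested. Fgf15 had 1.08 and 0.804 CPM in the GLI1 OE libraries, against 0.152 and 0.371 CPM in the controls. Its estimate was 1.82 ± 1.76 (edgeR adjusted p = 0.971), and Fgf3 was down to 3 counts in the GLI1 OE libraries and 1 in the controls, too few for a ratio.

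No receptor passed the test at D12. Fgfr1 had 266 and 287 CPM in the GLI1 OE libraries, against 293 and 244 CPM in the controls. Fgfr2 had 50.9 and 58.7 CPM in the GLI1 OE libraries, against 58.3 and 53.7 CPM in the controls. The groups overlapped for both, with estimates of 0.04 ± 0.17 and -0.03 ± 0.49. Fgfr3 had 56.7 and 36.3 CPM in the GLI1 OE libraries, against 66.7 and 63.9 CPM in the controls. It was lower in both, but its estimate of -0.49 ± 0.60 did not pass (edgeR adjusted p = 0.973). Fgfr4 had 0.341 and 1.30 CPM in the GLI1 OE libraries, against 0.354 and 0.371 CPM in the controls. Only library 20 was above the controls, and the estimate was 1.18 ± 0.78 (edgeR adjusted p = 0.930). With Fgf3, Fgf10, Fgf15 and Fgfr3, 4 of the 10 genes had groups that did not overlap at D12, against 34.3% of all genes. This is near the background. For Fgf3 it rests on 1 and 2 counts in the GLI1 OE libraries, against 1 and 0 in the controls. Libraries 10 and 9, at 1 count each, differed only through library size. Fgf9, Fgf23 and Fgfr4 overlapped. Fgf23 had 4.71 and 1.12 CPM in the GLI1 OE libraries, against 0.808 and 2.65 CPM in the controls, and Fgf8 had 2 counts in the GLI1 OE libraries and 4 in the controls. In the pathway lists neither edgeR nor DESeq2 called a gene at D12, with 1, 1, 0 and 1 genes at an unadjusted p under 0.05.

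The change of the effect between days was tested directly, as the effect at D8 or D12 minus the effect at D6. These tests share the D6 libraries. For D8, edgeR called 0 of the 10 genes, against 0.631% of all genes. An unadjusted p under 0.05 was reached by 3 of the 10, against 1046 of all 14892 tested genes. DESeq2 called 2 (Fgf8 and Fgf15), against 1.57%, and the fit with the block called 1 (Fgf8), against 0.537%. For Fgf15 the effect at D8 minus that at D6 came to -5.61 ± 1.33 log2 units (edgeR adjusted p = 0.0872; DESeq2 adjusted p = 0.00334), and passed in edgeR without D6 control library 3 (-6.85, edgeR adjusted p = 0.0342). For Fgf3 the estimate was -5.89 ± 2.02 (edgeR adjusted p = 0.386), with few counts left at D8. Fgf8 differed in the other direction, by 4.17 ± 1.10 (edgeR adjusted p = 0.155, or 0.0134 with the block; DESeq2 adjusted p = 0.00563). For D12 minus D6, edgeR called 0 of 10, against 0.604% of all genes, and DESeq2 called 0, against 1.93%. Only 1 member (Fgfr4, 2.50 ± 1.02, edgeR adjusted p = 0.462) had an unadjusted p under 0.05, against 1323 of all 14892 tested genes.

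Of the pathway genes called at D6, 3 had an effect that differed on a later day (edgeR). The effect on Spry2 was higher by 1.43 ± 0.28 at D8 (edgeR adjusted p = 0.0340) and by 1.38 ± 0.28 at D12 (edgeR adjusted p = 0.0415), neither of which passed with the block (0.0816 and 0.0943); 6 and 4 of 15 alternatives called them. Spry2 had 133 and 155 CPM in the D8 GLI1 OE libraries, against 143 and 119 CPM in the D8 controls. For Gab1 the effect differed by -1.46 ± 0.30 at D12 (edgeR adjusted p = 0.0494; called under 4 of 15 alternatives), where the gene had 135 and 128 CPM in the GLI1 OE libraries, against 161 and 163 CPM in the controls. Fgf14 also differed at D12 (edgeR adjusted p = 0.00864), with 2 and 3 counts in the D12 GLI1 OE libraries, against 35 and 6 counts in the D12 controls.

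Without the pulse, some members changed with the days of differentiation. At no step between control groups was the share of members called above that of all genes. At D5, before doxycycline, the authors' deposited TPM values, which allow genes to be compared, put Fgfr1 first at 87.9 ± 14.2 TPM (SD, n = 4). Fgf10 (48.1 ± 24.1) and Fgfr3 (47.2 ± 28.1) followed and did not differ from each other beyond their spread, as did Fgfr2 (12.5 ± 3.82), Fgf8 (12.2 ± 3.48) and Fgf15 (10.8 ± 10.4) below them. Fgf3 (2.56 ± 3.28), Fgf9 (1.04 ± 0.995) and Fgfr4 (0.333 ± 0.170) were low, and Fgf23 was listed at 0. The wide spreads came from a split between libraries: D5 libraries 1 and 2 had 139.7 and 145 CPM of Fgf10, against 59.7 and 54.7 CPM in libraries 3 and 4, and 42.1 and 44.6 CPM of Fgfr3, against 131 and 147 CPM. Fgf9 was split like Fgf10, with 3.55 and 3.71 CPM in libraries 1 and 2, against 0.166 and 0.549 CPM in libraries 3 and 4. Fgf3 and Fgf15 were split like Fgfr3: Fgf15 had 2.39 and 1.81 CPM in libraries 1 and 2, against 11.2 and 19.96 CPM in libraries 3 and 4, and Fgf3 had 0.0798 and 0.0403 CPM against 1.78 and 4.09 CPM.

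From D5 to D6 in the controls no member was called, against 18.4% of all genes by edgeR, and DESeq2 called 0, against 23.3%. Only 1 member (Fgf9, -2.08 ± 0.88) had an unadjusted p under 0.05, against 4670 of all 14892 tested genes. Fgf9 passed when D5 library 3 was left out (-2.46, edgeR adjusted p = 0.0318). Between D6 and D8 controls 2 of the 10 were called, against 34.8% of all genes. Fgf8 had 0.885 and 0.174 CPM in the D8 controls, against 11.1, 17.0 and 8.27 CPM in the D6 controls, a difference of -4.51 ± 0.90 log2 units (edgeR adjusted p = 0.00199). Fgf23 had 254 counts in the D8 controls, against 1 in the D6 controls, a ratio of 370.5 (95% interval 65.9 to 14689, counting error only; edgeR adjusted p = 0.000908). Fgf10 had an estimate of -1.27 ± 0.56 that passed only in DESeq2 (edgeR adjusted p = 0.0926, DESeq2 adjusted p = 0.0398), which called 3 of the 10, against 39.6%; the fit with the block called the same 2 as the fit without it, against 36.6%.

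Between D8 and D12 controls 2 of the 10 were called, against 36.3% of all genes, a share near the background. Fgf15 had 0.152 and 0.371 CPM in the D12 controls, against 3.27 and 6.71 CPM in the D8 controls, and fell by 4.24 on the log2 scale (SE 1.46; edgeR adjusted p = 0.0353, 0.0533 with the block). Fgfr2 had 58.3 and 53.7 CPM in the D12 controls, against 17.7 and 26.3 CPM in the D8 controls, and rose by 1.35 ± 0.50 (edgeR adjusted p = 0.0484). Both calls were near the threshold, and fits that left out 1 library called 0 to 1 of the 10. The fit with the block called Fgf8 and Fgfr2, 2 of 10, against 37.2%, and DESeq2 called Fgf15 and Fgfr2, against 39.7%. Fgf3 went out of range in the controls, with 1 count at D12 and 15 at D8.

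In the GLI1 OE series, 5 of the 10 genes were called between D6 and D8, against 40.1% of all genes. Fgf3 fell by 7.62 on the log2 scale (SE 1.32; edgeR adjusted p = 0.000626) and Fgf15 fell by 6.36 (SE 1.13; edgeR adjusted p = 0.000757), both under all 10 alternatives. Fgf9 had 3 counts at D8, against 139 at D6, a ratio of 0.0331 (95% interval 0.00674 to 0.0987, counting error only; edgeR adjusted p = 0.0129). Fgf23 had 85 counts at D8, against 3 at D6, a ratio of 43.4 (95% interval 14.4 to 215, counting error only; edgeR adjusted p = 0.00561). Fgfr1 rose by 0.59 ± 0.15 (edgeR adjusted p = 0.0076). Without D8 library 14 Fgf9 and Fgf23 lost the call (edgeR adjusted p = 0.106 and 0.251), and without library 18 Fgfr1 did (0.0876). DESeq2 and the fit with the block called the same 5, against 43.3% and 40.5% of all genes. Between D8 and D12 only Fgf8 was called, 1 of 10, against 33.5% of all genes, with 2 counts at D12 and 183 at D8 (ratio 0.0119, 95% interval 0.00143 to 0.0437, counting error only; edgeR adjusted p = 0.00184). DESeq2 called the same gene alone, against 36.9%.

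The genes whose levels over the 18 libraries were most like each member were looked up among annotated genes with a mean log2 CPM of at least 1. They are descriptions of likeness over libraries that share their days and groups. For Fgf3 they were Vangl1 (r = 0.94) and Adamts20 (0.92), and for Fgf15 Vangl1 (0.96) and Aco1 (0.95). For Fgf8 they were Mocs3 (0.95) and Pdf (0.94), for Fgf9 Dock4 and Habp4 (0.88 each), for Fgf10 Ildr2 (0.95) and P2rx3 (0.92), and for Fgf23 Fam114a2 (0.95) and Aldoc (0.94). Among receptors they were Apobec3 and Armcx2 for Fgfr1 (0.93 each), Tmem158 (0.88) and Atxn7l3 (0.87) for Fgfr2, Ugdh (0.87) and Plxna4 (0.82) for Fgfr3, and Hoxb2 (0.80) and Hdac10 (0.78) for Fgfr4. Vangl1, a planar cell polarity gene, was thus named for both Fgf3 and Fgf15. Those 2 ligands were themselves alike (r = 0.96), so the shared name adds little.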

How the data were processed

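RNA was measured by polyA RNA sequencing in 18 libraries of 7 groups. The authors deposited raw counts per gene, used here for every test, TPM values for the D5 libraries, and for each GLI1 OE comparison a table of log2 fold changes with adjusted p-values, printed here only where the authors' deposited table is named. Neither aligner nor counting tool, strand setting or genome build is given in the sources used. Columns of counts name a group and number the library, with no replicate given.

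Counts were tested in R 4.3.3 with edgeR 4.0.16 (quasi-likelihood test, robust; 1 coefficient per group over all 18 libraries; TMM; genes filtered at a minimum count of 10; Benjamini-Hochberg adjustment over all 14892 tested genes within a comparison; called under 0.05). SE is the log2 fold change divided by the root of its F statistic. CPM use TMM-scaled library sizes; log2 CPM have a prior count of 2; levels per kilobase use the median protein-coding transcript length, and the sum over secreted ligands alone was chosen after seeing the data. Script steps were tested on simulated data. Alternatives were DESeq2 1.42.0, its size factors in edgeR, no filter, a block of adjacent library numbers (control and GLI1 OE of 1 day), D5 libraries 1 and 2 summed, and each library left out. Deviations of adjacent libraries correlated at D6 (r = 0.62, 0.45 and 0.52) and D8 (0.49), but not at D12 (-0.23), so blocked values are given where they change a call. Intervals for ratios with few counts are exact at 95% and cover counting error only.

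The members and gene lists were chosen with earlier results of these data known. Named were all 10 members, Gli1 and Ptch1 as a check of the labels, up to 4 called genes per pathway list and direction with the smallest adjusted p, and the 2 genes most like each member by Pearson r (mean log2 CPM of at least 1, predicted gene names left out). Neighbours of Fgf3 and Fgf23, the readout genes of ERK signalling and Fgf4 were named after their values were seen.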

Additional observations from a re-analysis of the deposited data

Results flagged for a closer look

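Fgf8 was lower in all 3 GLI1 OE libraries at D6 (2.03 to 8.07 CPM, against 8.27 to 17.0 CPM in controls) and higher in both at D8 (1.77 and 6.66 CPM, against 0.885 and 0.174 CPM in controls). The effect at D8 minus that at D6 was 4.17 ± 1.10 log2 units (edgeR adjusted p = 0.155, or 0.0134 with the block of adjacent library numbers; DESeq2 adjusted p = 0.00563). Sdc4 was higher in all 3 at D6 and lower in both at D8, with 46.5 and 37.7 CPM in GLI1 OE libraries, against 59.2 and 49.2 CPM in controls, and a difference between days of -1.28 ± 0.36 (edgeR adjusted p = 0.209). Neither passed in edgeR without the block.

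Among the genes followed here, the effect of GLI1 OE differed between days in the edgeR test for Gli1, Ptch1, Spry2, Gab1 and Fgf14. Gli1 differed by -5.72 at D8 and -5.84 at D12 (edgeR adjusted p = 0.0277 and 0.0415; 0.0838 and 0.109 with the block), and Ptch1 by -3.05 and -4.36 (0.0112 and 0.00194). Spry2 differed by 1.43 and 1.38 (0.0340 and 0.0415), and lost both calls with the block (0.0816 and 0.0943). At D12 Gab1 also differed, by -1.46 (0.0494).

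Fgf14 differed at D12 by -9.40 ± 1.51 (edgeR adjusted p = 0.00864), a size that depends on the fit, since 1 or more groups had few counts. In the D5 controls 1 library held its only count, at 0.0414 CPM, and the other 3 were at 0. With 1 count in the group such a gap is fixed, so it carries no weight.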

How the results depend on the processing

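The calls of Fgf3 and Fgf15 at D6 held under all 11 alternatives. Counts with DESeq2 were 1030 genes at D6 (616 in edgeR), 40 at D8 and 14 at D12, and 1 member at D8 and 2 for D8 minus D6. Fits leaving out 1 library called 335 to 460 genes for D6, 0 to 53 genes for D8 and 0 to 8 genes for D12. For members they gave 0 to 1 at D8, for D8 minus D6, for D6 control over D5 control and for D12 control over D8 control, 3 to 5 for D8 over D6 GLI1 OE, and 1 to 2 for D12 over D8 GLI1 OE. For D12 control over D8 control, no filter gave 0, summing D5 libraries 1 and 2 gave 1, and crossing the D12 pairs in the block, an alternative added after seeing the data, gave 1; with crossed pairs members and all genes called at D12 were 0. The replicate block called 667 genes at D6, and 1 member for D8 minus D6; it changed no member's call beyond those given in the report. Signs turned among uncalled estimates when 1 library was left out: Fgf10 at D6 (-0.64 to 0.17), Fgf23 at D6 (-1.86 to 3.13), Gli1 at D8 (-0.057 to 0.65) and Gli1 at D12 (-0.10 to 0.39). The causes were not tested. Among single-gene values 468 kept direction and call, 88 lost and 11 gained one, and 5 turned. Groups of 2 libraries and few counts of Fgf3, Fgf9, Fgf23 and Fgfr4 limit what D8 and D12 can show.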
